A study of Mus musculus with 8 samples.

Results

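The genes described here encode Cul3 and 3 families of adaptor proteins that dock onto it: the Klhl and Kbtbd proteins, which carry BTB and kelch domains, and the atypical small GTPases of the RhoBTB family. Members were the genes whose single symbol in the platform annotation is Cul3 or starts with Klhl, Kbtbd or Rhobtb. This gave 46 of the 18194 genes with a single-symbol probe set: Cul3, 33 Klhl genes, 9 Kbtbd genes and 3 Rhobtb genes. Each gene was represented by the probe set with the highest mean log2 signal over all 8 arrays. The family was chosen by looking at earlier results of the same contrast, so its fold changes and p-values describe these arrays and support nothing further. Probe sets were picked by their mean over both groups, without regard to the difference.

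Cul3 is the scaffold of a family of ubiquitin ligases. One end holds a RING protein that recruits a charged ubiquitin-conjugating enzyme, and its other end binds the BTB domain of an adaptor, whose kelch repeats hold the protein to be ubiquitylated. Attachment of the ubiquitin-like protein Nedd8 switches the ligase on, and the COP9 signalosome removes it. In skeletal muscle several kelch adaptors are known for their place at the sarcomere, where they keep thin filament proteins stable, and human variants in some of them cause nemaline myopathy.

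Gene expression was measured in gastrocnemius, a calf muscle, of mice on a C57/Bl6J background, with 1 Affymetrix array per sample. The 4 samples titled GRKO carry the genotype GR KO, and the series names these mutants GR(i)skm-/-, where GR is the glucocorticoid receptor encoded by Nr3c1. The 4 samples titled WT are labelled wild type. The labels used here state neither mouse age and sex, nor the Cre driver or inducer of the deletion, nor whether each array held 1 animal. The p-values therefore rest on array-to-array spread, part of which may be technical. The comparison asks how transcripts of whole muscle differ between these mutants and wild type mice. Nr3c1 signal remained on the GRKO arrays, as given below, so complete loss in all cells is not assumed.

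The arrays had median signals between 18 and 26. The Nr3c1 probe set with the highest WT mean had signals of 134, 79, 76 and 94 on the GRKO arrays, against 377, 307, 307 and 352 on the WT arrays, a log2 fold change of -1.84. All 6 Nr3c1 probe sets lay below 0, from -1.96 to -0.32, and the groups were separate at 2 of them. WT replicate 4 stood apart: its bacterial spike-in signal was 3.25-fold that of the other WT arrays, its 3'/5' ratio for Gapdh was 1.20 against 0.797 to 0.915 on the other arrays, and its median correlation with the other arrays was 0.925 against at least 0.964 for each of the others. It held the highest or lowest of the 8 signals for 54.3% of the 11061 genes tested. Among the 37 tested members it held 15 such values (40.5%), as many as WT replicate 1. All 10 markers of muscle fibres fixed for the check, Ckm and Acta1 among them, were above the signal filter. WT replicate 4 also stood apart in some cell type markers, by mean log2 signal after centring each gene on the 8 arrays. Its value was 0.71 for skeletal muscle fibre markers, against -0.40 to 0.18 on the other arrays. For slow fibre markers it was -1.29, against -0.39 to 0.69, and for fibroblast and matrix markers -0.84, against -0.17 to 0.32. For macrophage markers, at -0.02, it lay inside the range.

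Of the 46 members, 37 exceeded the signal filter, set at the probe set median of 19.4, and were tested, and 9 were dim. The dim members were Kbtbd6, Klhl1, Klhl4, Klhl10, Klhl14, Klhl15, Klhl32, Klhl35 and Klhl36, whose geometric mean signals lay between 2.11 and 14.5, with no single array above 34. Among these, Klhl10 is known for its role in the testis and Klhl1 for its role in the brain. Klhl29, at a geometric mean of 20.3, was the member just inside the filter, and Klhl32, at 14.5, the one just outside. In a whole muscle, fewer cells of a type and less RNA per cell cannot be told apart, and signals of different probe sets do not rank transcripts.

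No member passed the threshold between GRKO and WT muscle. In limma, with Benjamini-Hochberg adjustment over all 11061 genes, 0 of 37 members had an adjusted p under 0.05, against 6 of all genes (0.0542%), and 4 of 37 members (10.8%) had an unadjusted p under 0.05 against 4.63% of all genes. Groups did not overlap for 2 members, Rhobtb1 and Klhl25 (5.41%), against 2.58% of all genes. Both were higher in GRKO muscle, where 1.28% of all genes were higher without overlap, and 0 members were lower without overlap, against 1.29% of all genes. The log2 fold changes of members, given throughout as GRKO over WT, had a median of -0.09 beside 0.01 over all genes, with 15 above 0 and 22 below. Without WT replicate 4, with each gene's brightest probe set picked anew, the member median was 0.01, with 20 of 37 above 0. The all-gene median was then 0.02. On the log2 scale 28 of 37 members were within 0.3 of 0 and 6 beyond 0.5. The median log2 fold change without regard to sign was 0.23 for members and 0.16 over all genes tested. The median SE was 0.21 for members and 0.20 over all genes.

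**Figure D1:**
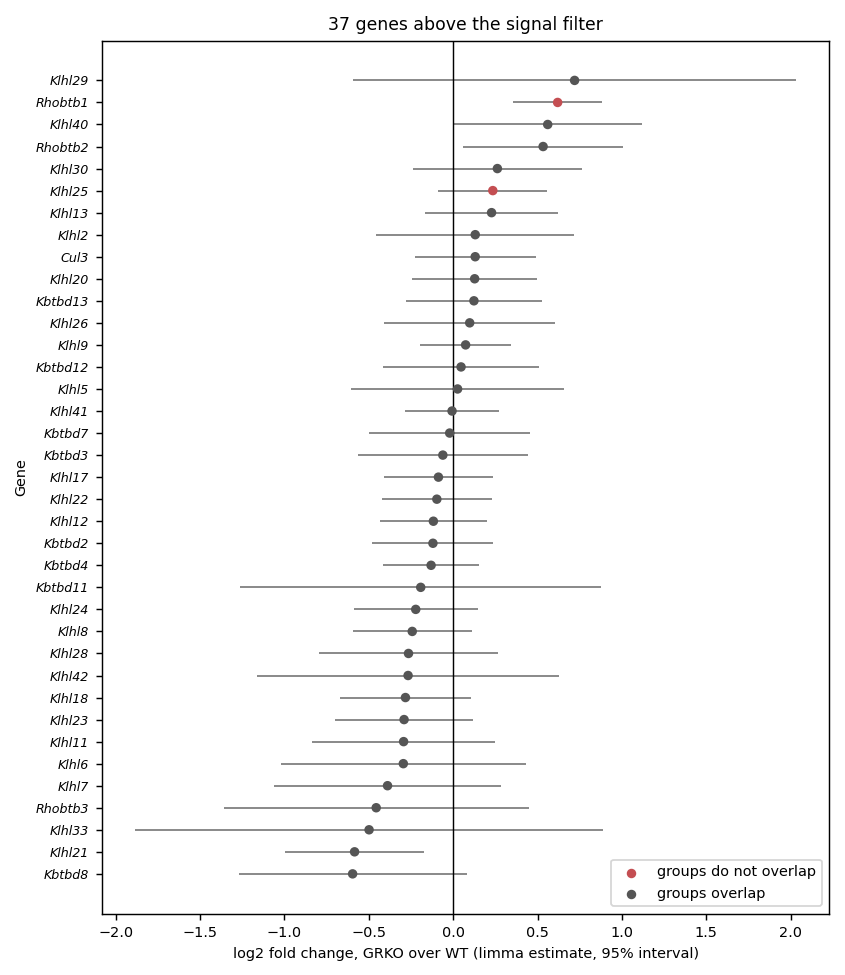
Log2 fold change of GRKO over WT (x axis, limma estimate with its 95% interval) for the 37 genes above the signal filter (y axis, highest value at the top). The intervals of 33 genes include 0, and Rhobtb1 at 0.62 has the one farthest from it.

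Rhobtb1 had the largest separation of all members. Its product is an atypical GTPase with BTB domains that, in mouse vascular smooth muscle, is known to act with Cul3 on the cyclic GMP phosphodiesterase PDE5. Its signals were 411, 433, 424 and 395 on the GRKO arrays, against 243, 280, 280 and 281 on the WT arrays. Every GRKO signal lay above every WT signal, and the spread inside each group was narrow. The means were 416 ± 16.5 in GRKO and 271 ± 18.7 in WT muscle (SD, n = 4 each), a 1.54-fold difference. Its log2 fold change of 0.62 ± 0.12 (SE, 95% interval 0.35 to 0.88) had an unadjusted p of 0.000314 in limma and an adjusted p of 0.267, which is not past the threshold. By p it stood at place 13 among the 11061 genes.

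A dimmer Rhobtb1 probe set was also above the filter. It had signals of 156, 270, 229 and 187 on the GRKO arrays, against 120, 170, 178 and 69 on the WT arrays. The groups overlapped there, and WT replicate 4 was the lowest array. Its log2 fold change was 0.71 ± 0.29 (SE, adjusted p = 0.923 in limma over all probe sets above the filter), and 0.42 ± 0.22 without that array. Without WT replicate 4, the log2 fold change of the brighter Rhobtb1 probe set was 0.64 ± 0.13 (limma adjusted p = 0.208).

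Markers of endothelial cells also lay higher in GRKO muscle. Of 8 such markers 7 had a log2 fold change above 0, with a median of 0.40, and their summed signal was 3455 to 5028 on the GRKO arrays against 2665 to 3324 on the WT arrays. No marker passed the threshold in limma (smallest adjusted p = 0.880). In limma 4 of the 8 had an unadjusted p under 0.05, against 4.63% of all genes. For 2 of the 8 the GRKO arrays were higher without overlap, against 1.28% of all genes. Without WT replicate 4 the endothelial median was 0.30, and 2 markers had an unadjusted p under 0.05 in limma. Of 8 fibroblast and matrix markers 6 were above 0, with summed signals of 11831 to 17125 in GRKO and 6763 to 13418 in WT muscle. Their median was 0.56, or 0.32 without WT replicate 4. In limma 3 of these 8 had an unadjusted p under 0.05, and 1 without that array. Smooth muscle and pericyte markers had a median of 0.18, with overlapping sums of 4951 to 6154 and of 5090 to 6520 in GRKO and WT muscle, and a median of 0.04 without that array. The medians of Schwann cell, slow fibre and skeletal muscle fibre markers were 0.35, 0.34 and -0.11, or 0.22, -0.04 and 0.16 without it. The part of these cell types in the Rhobtb1 difference was not tested.

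The promoter windows of members, from RefSeq on GRCm38.p6, run from 250 bases before to 50 bases after an annotated start. The tables held 52 windows for 38 of the 46 members, with 3 for Rhobtb1. The motifs were chosen after the values above had been seen, and both strands were searched. The full palindrome of the glucocorticoid response element, which is AGAACA, 3 free bases and the reverse complement of AGAACA, was in 0 of the 52 windows and in 0.00913% of all 32851 windows. With 3 windows in all holding it, its absence from 52 does not set members apart. Sequence outside the windows was not searched. A single arm, AGAACA, which any full palindrome also holds, was in 10 of the 52 windows (19.2%), from 8 members, and in 19.0% of all windows. A loose form of the MEF2 core used by many muscle promoters, CTA and TAG around 4 free bases, was in 5 of the 52 windows (9.62%) and in 3.69% of all windows. These 5 belong to Rhobtb1, Klhl41, Kbtbd13, Klhl33 and Kbtbd12. A match is a string of letters and does not show binding.

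The windows of Rhobtb1, Klhl41 and Kbtbd13 are printed 5′ to 3′ because the first is the best separated member and the others are sarcomere adaptors described below, with capitals marking the loose MEF2 match. Of the 3 Rhobtb1 windows, only the one with a match is printed, at chr10:69208302-69208601 on the plus strand. The Klhl41 window is chr2:69669870-69670169 on the plus strand, and that of Kbtbd13 is chr9:65391603-65391902 on the minus strand. The middle letters of the match are GCAT in Rhobtb1 and TCTT in Kbtbd13, neither of which is all A or T, unlike TATT in Klhl41.
Rhobtb1: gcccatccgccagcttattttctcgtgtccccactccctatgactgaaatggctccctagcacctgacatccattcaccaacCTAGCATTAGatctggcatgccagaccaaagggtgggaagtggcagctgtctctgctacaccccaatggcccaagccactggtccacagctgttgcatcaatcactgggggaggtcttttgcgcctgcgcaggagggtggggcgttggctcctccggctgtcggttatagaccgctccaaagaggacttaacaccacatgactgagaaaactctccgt
Klhl41: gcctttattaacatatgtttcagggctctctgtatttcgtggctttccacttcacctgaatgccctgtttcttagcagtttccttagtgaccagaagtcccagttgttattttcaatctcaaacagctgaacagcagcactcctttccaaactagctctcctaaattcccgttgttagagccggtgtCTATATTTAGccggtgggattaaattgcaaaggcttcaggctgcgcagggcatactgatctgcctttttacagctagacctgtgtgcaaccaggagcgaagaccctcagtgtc
Kbtbd13: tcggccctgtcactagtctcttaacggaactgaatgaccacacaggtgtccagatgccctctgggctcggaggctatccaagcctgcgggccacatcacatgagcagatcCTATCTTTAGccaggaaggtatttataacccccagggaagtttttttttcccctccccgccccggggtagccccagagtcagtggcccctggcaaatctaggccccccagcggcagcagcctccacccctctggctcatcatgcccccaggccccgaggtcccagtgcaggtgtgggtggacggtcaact

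Rhobtb2, a relative of Rhobtb1 described in humans as a gene lost in breast cancer, had signals of 177, 271, 241 and 271 on the GRKO arrays, against 133, 239, 169 and 133 on the WT arrays. WT replicate 2 reached into the GRKO range. Its log2 fold change was 0.53 ± 0.22 (SE, 95% interval 0.06 to 1.01, unadjusted p = 0.0314 and adjusted p = 0.880 in limma). A dimmer probe set had 0.21 ± 0.18. Without WT replicate 4 the value of the brighter probe set was 0.43 and that of the dimmer one 0.09.

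Rhobtb3, an ATPase known from vesicle transport to the Golgi, was the RhoBTB gene with values on the other side of 0. Its brightest probe set had signals of 156, 244, 218 and 137 on the GRKO arrays, against 370, 386, 313 and 90 on the WT arrays. The first 3 WT arrays lay above all GRKO arrays, and WT replicate 4 lay below them all. The log2 fold change was -0.46 ± 0.41 with all arrays (SE, limma adjusted p = 0.881) and -0.95 ± 0.20 without WT replicate 4 (unadjusted p = 0.000606, adjusted p = 0.292), where the groups no longer overlapped. Across all genes, 4.92% did not overlap without that array. The second brightest Rhobtb3 probe set had its highest signal, 315, on that same WT array, against 253, 171 and 158 on the other WT arrays and 132 to 212 on the GRKO arrays, and a log2 fold change of -0.48 ± 0.24, or -0.29 without that array. Its remaining probe sets above the filter had -0.04 and -0.08, or -0.15 and -0.43 without it, so all 4 lay below 0 without passing the threshold (limma, smallest adjusted p = 0.923).

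**Figure D2:**
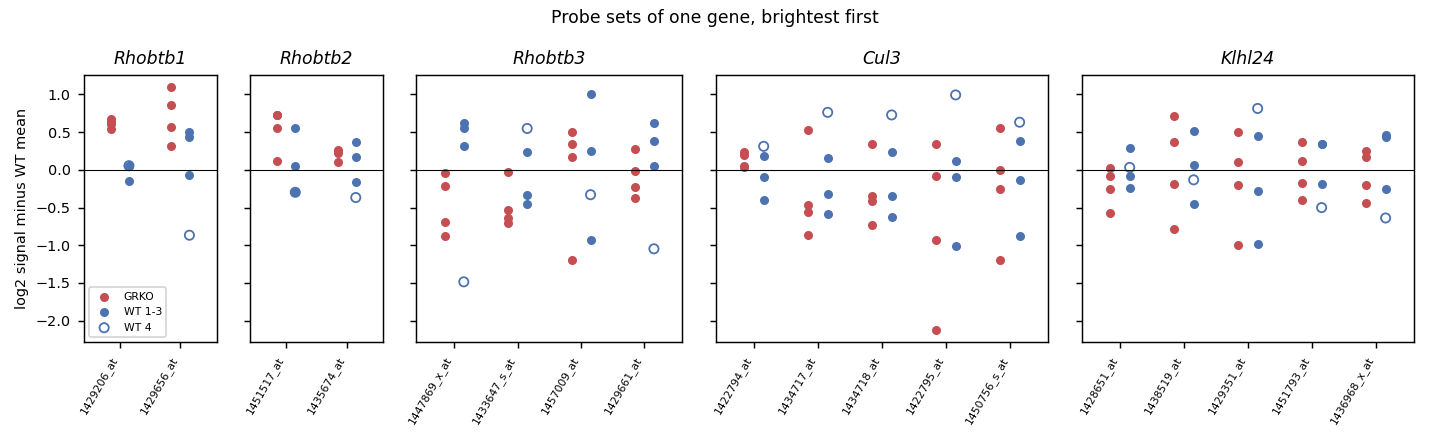
Log2 signal of each array minus the WT mean (y axis) for each probe set above the filter (x axis, brightest first) of Rhobtb1, Rhobtb2, Rhobtb3, Cul3 and Klhl24, with GRKO arrays as red points, WT replicates 1 to 3 as filled blue points and WT replicate 4 as open circles. WT replicate 4 is the lowest WT array for the brightest Rhobtb3 probe set, at a signal of 90, and the highest for the second brightest, at 315.

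Cul3 itself did not differ beyond its spread. Its brightest probe set had signals of 1044, 1066, 931 and 940 on the GRKO arrays, against 1032, 849, 687 and 1126 on the WT arrays. The GRKO values lay inside the WT range. The means were 995 ± 69.7 in GRKO and 924 ± 195 in WT muscle (SD, n = 4 each), with a log2 fold change of 0.13 ± 0.16 (SE, 95% interval -0.23 to 0.49, limma adjusted p = 0.900), and 0.23 without WT replicate 4. The other 4 Cul3 probe sets had log2 fold changes between -0.70 and -0.22, opposite in sign to the brightest, and none passed the threshold (limma, adjusted p at least 0.923). On those 4 probe sets WT replicate 4 was the highest of the 8 arrays, and the lowest was GRKO replicate 3. Without WT replicate 4 they had log2 fold changes between -0.37 and -0.01.

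The sarcomere adaptor Klhl41, whose human variants cause nemaline myopathy and whose product is known to stabilise nebulin, had almost equal signals in both groups. Its signals were 2386, 1889, 2054 and 2019 on the GRKO arrays, against 2318, 1922, 2037 and 2097 on the WT arrays. The log2 fold change was -0.01 ± 0.13 (SE, 95% interval -0.29 to 0.27, limma adjusted p = 0.993), and the groups overlapped fully.

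Klhl40, which stabilises nebulin and leiomodin-3 and is likewise a nemaline myopathy gene in humans, varied more. Its signals were 1304, 2341, 2145 and 2303 on the GRKO arrays, against 1318, 1841, 1548 and 849 on the WT arrays. All GRKO arrays but replicate 1 lay above every WT array, and GRKO replicate 1 lay below WT replicates 1, 2 and 3. The means were 2023 ± 487 in GRKO and 1389 ± 419 in WT muscle (SD, n = 4 each), with a log2 fold change of 0.56 ± 0.25 (SE, unadjusted p = 0.0492, limma adjusted p = 0.880). It was 0.34 without WT replicate 4 and 0.76 without GRKO replicate 1 (limma adjusted p = 0.995 and 0.418).

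Kbtbd13, a Cul3 adaptor and another human nemaline myopathy gene, had signals of 196, 267, 309 and 340 on the GRKO arrays, against 254, 268, 272 and 211 on the WT arrays. The GRKO range enclosed the WT range, and the log2 fold change was 0.12 ± 0.18 (SE, limma adjusted p = 0.910), with -0.05 at its other probe set. Single arrays moved the Kbtbd13 value widely: it was 0.04 without WT replicate 4, 0.28 without GRKO replicate 1 and 0.02 without GRKO replicate 4. Klhl30 had signals of 703, 778, 983 and 847 on the GRKO arrays, against 711, 901, 828 and 415 on the WT arrays. WT replicate 4 was the lowest array, and the log2 fold change of Klhl30 was 0.26 ± 0.23 with that array and 0.02 ± 0.15 without it. Klhl33 had signals of 19, 26, 24 and 17 on the GRKO arrays, against 27, 8, 32 and 116 on the WT arrays. A single array set its sign, since the log2 fold change was -0.50 ± 0.63 with WT replicate 4 and 0.15 ± 0.46 without it.

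Klhl9, which in human cells works with Klhl13 on Aurora B and is tied to a distal myopathy, had signals of 547, 503, 570 and 553 on the GRKO arrays, against 578, 533, 467 and 491 on the WT arrays. The groups overlapped, and the log2 fold change was 0.07 ± 0.12 (SE, 95% interval -0.20 to 0.35, limma adjusted p = 0.917). Its partner Klhl13 had 0.23 ± 0.18 (limma adjusted p = 0.880).

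**Figure D3:**
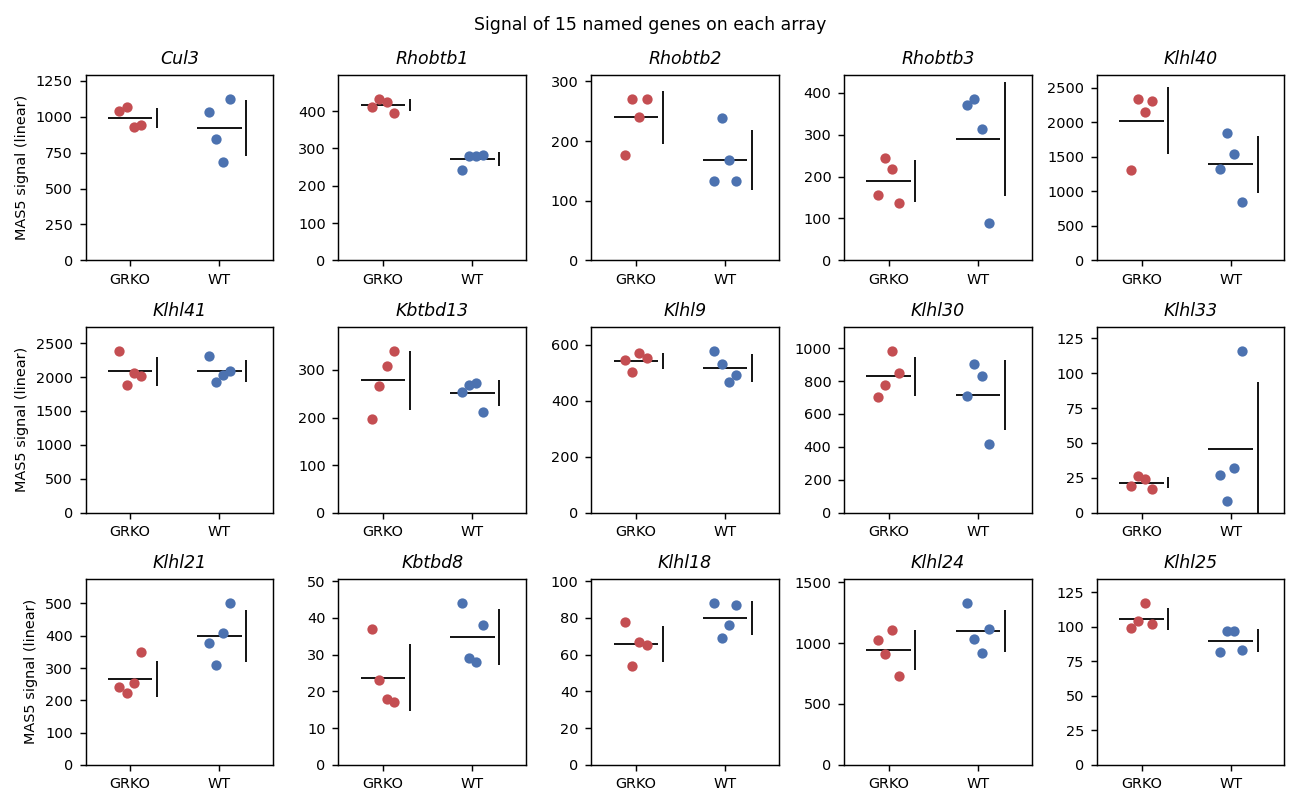
MAS5 signal (y axis, linear, from 0) of each array for the 15 named genes, with GRKO at the left and WT at the right of each panel, a horizontal bar at the mean and a vertical bar for 1 SD either side. The GRKO points of Rhobtb1 (395 to 433) and Klhl25 (99 to 117) lie above all WT points (243 to 281 and 82 to 97), and the other 13 panels overlap.

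Among adaptors of cell division, Klhl21 was lower in signal in GRKO muscle, but not past the threshold. Its product works with Cul3 to move Aurora B during cytokinesis. Its signals were 242, 222, 252 and 349 on the GRKO arrays, against 377, 308, 410 and 501 on the WT arrays. Only GRKO replicate 4 reached into the WT range. The means were 266 ± 56.6 in GRKO and 399 ± 80.2 in WT muscle (SD, n = 4 each), with a log2 fold change of -0.58 ± 0.19 (SE, 95% interval -0.996 to -0.17, unadjusted p = 0.00974, limma adjusted p = 0.876). It was -0.47 without WT replicate 4. Its other probe set was dim. Klhl18, an activator of Aurora A at the entry to mitosis, had signals of 78, 54, 67 and 65 on the GRKO arrays, against 88, 69, 76 and 87 on the WT arrays. The groups of Klhl18 overlapped, with a log2 fold change of -0.28 ± 0.18 (SE, limma adjusted p = 0.880).

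Klhl25, an adaptor for the translation repressor 4E-BP1 and for ATP citrate lyase, was the other member with separate groups. Its signals were 99, 104, 117 and 102 on the GRKO arrays, against 82, 97, 97 and 83 on the WT arrays. The gap between the groups was narrow, and the means were 106 ± 7.94 in GRKO and 89.8 ± 8.38 in WT muscle (SD, n = 4 each). The log2 fold change was 0.24 ± 0.15 (SE, unadjusted p = 0.138, limma adjusted p = 0.880). A dimmer Klhl25 probe set, just under the filter at a geometric mean of 18.9, ran the other way, at -0.41. Without WT replicate 4 it exceeded the filter at -0.78 ± 0.33 (SE, limma unadjusted p = 0.0347, adjusted p = 0.997). The brighter probe set then had 0.20.

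Kbtbd8, known for modifying the nucleolar proteins TCOF1 and NOLC1 in neural crest, had signals of 37, 23, 18 and 17 on the GRKO arrays, against 44, 29, 28 and 38 on the WT arrays. GRKO replicate 1 reached into the WT range, and the log2 fold change was -0.60 ± 0.31 (SE, limma adjusted p = 0.880). Klhl24, whose human variants affect keratin 14 in skin, had signals of 1029, 914, 1110 and 730 on the GRKO arrays, against 1329, 1033, 921 and 1114 on the WT arrays. The groups overlapped widely, with a log2 fold change of -0.22 ± 0.17 (SE, limma adjusted p = 0.880) and values from -0.15 to 0.03 at its other 4 probe sets, or -0.27 to 0.12 without WT replicate 4.

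The other 22 tested members had log2 fold changes from -0.39 for Klhl7 to 0.72 for Klhl29, with 7 above 0 and 15 below, and none passed the threshold in limma (smallest unadjusted p = 0.145). Klhl29 was near the filter, and its value of 0.72 ± 0.60 (SE) rested on a signal of 4 on WT replicate 4, against 15, 30 and 35 on the other WT arrays and 18 to 33 on the GRKO arrays. Without that array its log2 fold change was 0.06, and that of Klhl7 was -0.16. Kbtbd2, which in mice removes the p85α subunit of PI3-kinase, had -0.12 ± 0.16, and -0.02 without WT replicate 4. Klhl8, whose worm counterpart acts on the synaptic protein rapsyn, had -0.24 ± 0.16, with signals of 227 to 346 in GRKO and 286 to 387 in WT muscle. Klhl12, an adaptor for the vesicle coat protein Sec31, had -0.12 ± 0.14, and Klhl22, an adaptor for the mTORC1 regulator DEPDC5, had -0.10 ± 0.15. Klhl2, an adaptor for WNK kinases, had 0.13 ± 0.27 (0.21 without WT replicate 4), and Klhl20 had 0.13 ± 0.17. Klhl6, known from B lymphocytes, had -0.30 ± 0.33 and 0.01 without WT replicate 4.

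Probe sets of the same member did not always run the same way. Of 12 members with more than 1 probe set above the filter, 8 had all of them on the same side of 0. In 4 members, Cul3, Kbtbd13, Klhl17 and Klhl24, they fell on both sides. Removal of WT replicate 4, with the brightest probe set picked anew, changed the sign of 5 members: Kbtbd7, Kbtbd11, Klhl6, Klhl17 and Klhl33. For Klhl17 the change came from a switch of probe set. Its first probe set stayed below 0, at -0.09 with all arrays and -0.01 without WT replicate 4. The newly picked one had 0.09 and 0.18.

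**Figure D4:**
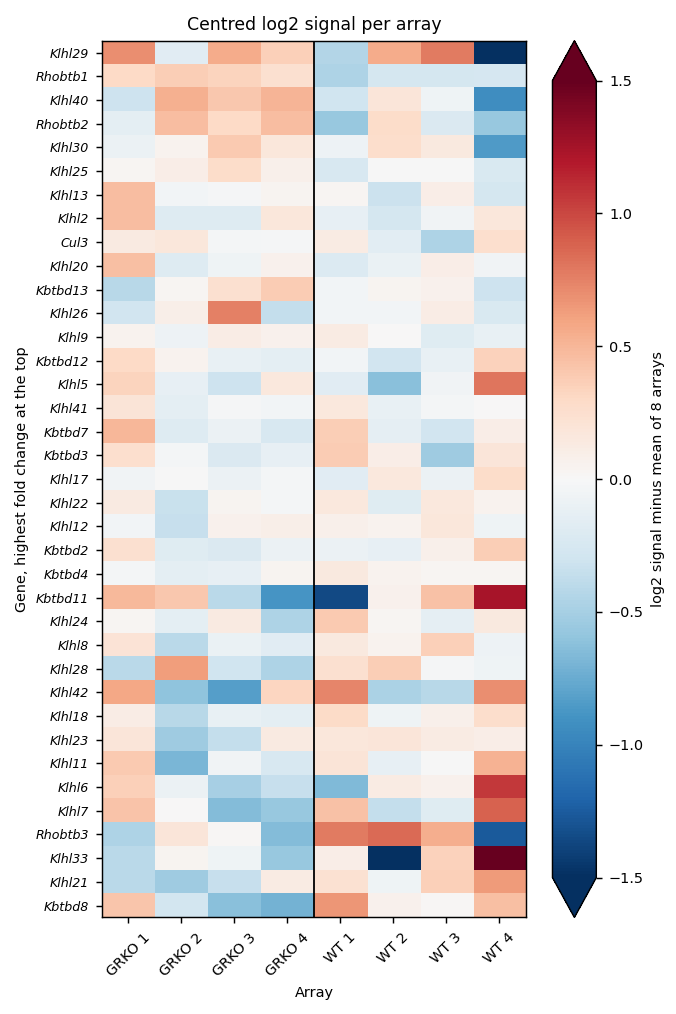
Log2 signal minus the mean of the 8 arrays (colour) for the 37 tested genes (rows, highest fold change at the top) on each array (columns, GRKO at the left). WT replicate 4 holds single strong values, such as the signal of 116 for Klhl33 and of 90 for Rhobtb3, while Rhobtb1 is above its mean on all GRKO arrays and below it on all WT arrays.

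Genes that work with these adaptors were read from the same fit as lists, described by counts beside the background of 0.0542% called among all genes and an all-gene median of 0.01. Of 27 tested Cul3 adaptors outside the rule, 0 passed the threshold in limma and the median log2 fold change was -0.04, or 0.02 without WT replicate 4. The smallest p-values belonged to Keap1, the sensor that holds Nrf2 in check (-0.36 ± 0.16), Abtb2 (0.40 ± 0.19) and Kctd10 (0.35 ± 0.17), each with a limma adjusted p of 0.880. Without WT replicate 4, Abtb2 had 0.26 and Kctd10 0.25. Keap1 had signals of 413, 337, 364 and 259 on the GRKO arrays, against 384, 482, 453 and 429 on the WT arrays, and GRKO replicate 1 overlapped the WT range.

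Of 9 cullins and RING partners, 0 passed the threshold in limma and the median was -0.01, or 0.06 without WT replicate 4. Rnf7, the RING protein that pairs with Cul5, had -0.41 ± 0.23, while Cul7 had 0.32 and Cul4b -0.19, which were 0.13 and -0.10 without WT replicate 4. Of 12 tested genes of neddylation and cullin exchange 0 passed, with a median of -0.05. Cand2, a cullin exchange factor of muscle, had 0.37 ± 0.19, or 0.17 without that array, and the Nedd8 ligase factors Dcun1d4 and Dcun1d5 had -0.44 and -0.24. Of 10 COP9 signalosome subunits 0 passed, with a median of 0.02, or -0.05 without that array. Cops6, Cops5 and Cops2 had 0.27, -0.17 and -0.26, and 0.12, -0.19 and -0.13 without it. In these lists 1 gene, Keap1, had an unadjusted p under 0.05 in limma, against 4.63% of all genes.

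Among 27 tested substrates and partners of the adaptors, 0 passed the threshold in limma and the median was 0.07. In limma 2 of the 27 had an unadjusted p under 0.05, against 4.63% of all genes, and 3 without WT replicate 4. Pik3r1, which encodes the p85α subunit on which Kbtbd2 is known to act, had signals of 326, 392, 282 and 232 on the GRKO arrays, against 562, 457, 455 and 447 on the WT arrays. All GRKO arrays lay below all WT arrays, as they did for 1.29% of all genes. The log2 fold change of Pik3r1 was -0.66 ± 0.17 (SE, limma adjusted p = 0.777), and -0.69 without WT replicate 4. Nolc1 had -0.42 ± 0.18 and the Rac activator Tiam1, a substrate of Kbtbd6 and Kbtbd7, had 0.44 ± 0.22 (limma adjusted p = 0.880 for both). Without WT replicate 4 the list's median was -0.01, and Tiam1 had 0.27. Other partners of the named members had overlapping groups. Neb, the nebulin gene, had -0.36 ± 0.28, Lmod3 had 0.11 ± 0.14, Irs1, a substrate of Klhl9, had 0.35 ± 0.29, and Pde5a, a target of Rhobtb1 near the filter at signals of 17 to 26 in GRKO and 15 to 22 in WT muscle, had 0.17 ± 0.28. Tcof1 had -0.08, Aurka 0.11, Acly -0.08 and Eif4ebp1, the gene of 4E-BP1, -0.13, while Aurkb and Krt14 were dim. Several of these values rested on WT replicate 4: without it Irs1 had 0.00249, Neb -0.12, Pde5a 0.05, Lmod3 -0.01, Acly -0.01 and Aurka -0.06.

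**Figure D5:**
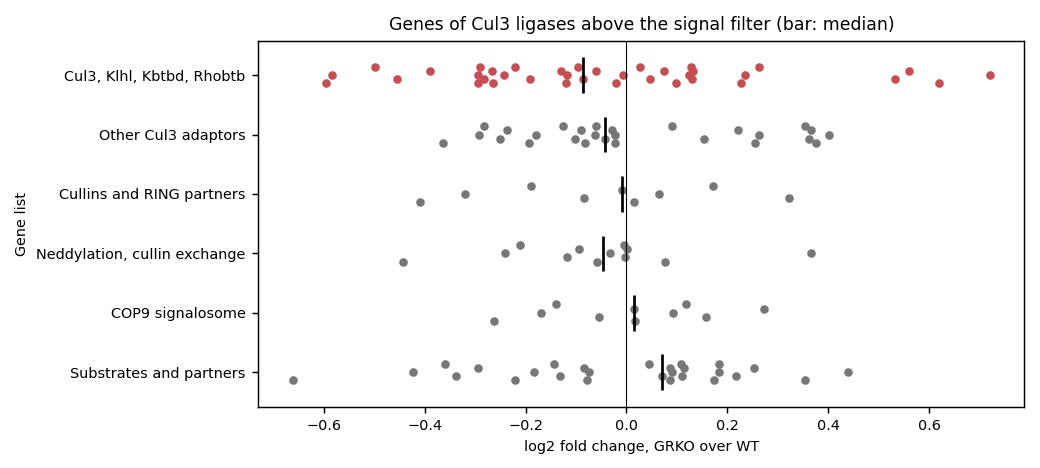
Log2 fold change of GRKO over WT (x axis) for each gene above the signal filter in 6 lists (y axis), with a bar at the list median. The medians lie between -0.09 for Cul3 with its Klhl, Kbtbd and Rhobtb adaptors and 0.07 for substrates and partners, and the points of every list fall on both sides of 0.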

How the data were processed

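Total RNA was hybridised after biotin labelling to 8 arrays. The authors deposited MAS5 signal intensities on a linear scale for 45101 probe sets, per the submitters' processing notes; no source used here states the MAS5 version or scaling target. All values were whole numbers, with trimmed means near 99.96 on each array. Probe sets without a single symbol and 64 control probe sets were left out. The log2 of each signal was taken with no pseudocount and 0 set to the array's smallest positive value, which applied to 1 value of a dim member and to 1 value among the genes tested. Genes whose brightest probe set exceeded the median signal of 19.4 entered a linear model in R 4.3.3 with limma 3.58.1 (lmFit, eBayes with trend, two-sided, Benjamini-Hochberg adjustment over 11061 genes, threshold 0.05). The limma fit was tested on simulated data with independent normal noise and, unlike these data, no array that stood apart. Figures used Python 3.11.15.

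The members and lists were chosen with earlier results of these data known. Values on every array are given for Cul3, the Rhobtb genes, adaptors with a role or high level in striated muscle, the 6 members with the smallest p, the 5 with the highest signal and those with separate groups. The muscle adaptors Klhl31, Klhl34 and Klhl38 were also looked for, but no probe set carried any of them as its single symbol. From each list the 3 genes with the smallest p are named, with partners of named members. Same-numbered arrays did not pair: correlations of their deviations lay between -0.39 and 0.18. Alternatives covered scaling, pseudocount, filter, probe set choice, variance prior, array weights, the replicate block and leaving out each array. The number of arrays limits precision.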

Additional observations from a re-analysis of the deposited data

Results flagged for a closer look

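Of 74 groups of 4 arrays among the 37 tested members, 5 had 1 array whose gap to the nearest other exceeded Dixon's 95% critical value for 4 samples on the log2 scale, a rate near the 1 in 20 that chance gives. Klhl40 had a signal of 1304 on GRKO replicate 1, against 2145 to 2341 on the other GRKO arrays. Klhl13 had 119 on GRKO replicate 1, against 84 to 89 on the others. Klhl28 had 161 on GRKO replicate 2, against 76 to 85 on the others. Rhobtb1 had 243 on WT replicate 1, against 280 to 281 on the other WT arrays, so the remaining WT values were close to each other. Rhobtb3 had 90 on WT replicate 4, the array with the high spike-in signal, against 313 to 386 on the other WT arrays.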

How the results depend on the processing

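No member passed the threshold in limma under any of the 19 alternatives (11 of processing and 8 that left out an array), where the smallest adjusted p of a member was 0.0804, for Rhobtb1 with array weights. Rhobtb1 kept a log2 fold change between 0.57 and 0.67 throughout, with adjusted p-values from 0.0804 to 0.999. The member median lay between -0.15 and 0.01. Of 15 named members, 11 kept their sign in every alternative where they were tested. With the probe sets of a gene averaged, Cul3 had -0.28 and Klhl25 -0.0865. With array weights Klhl33 had 0.0380, and with median centring Klhl41 had 0.0251. With 1 array left out, Cul3 ranged from -0.00302 to 0.235, Klhl33 from -1.13 to 0.15 and Klhl41 from -0.0727 to 0.0436, and the cause was not tested. The replicate block changed no member's call, giving Rhobtb1 an adjusted p of 0.904. Over all genes, where 6 were called, 0 were called with no filter, 1 with probe sets averaged, 2 without the trend, 10 with array weights, 1 with the replicate block, and 0 to 5 with 1 array left out. Quantile normalization and median centring put the all-gene median at 0.04 and 0.04, against 0.01. Members near the filter had wide intervals, and dim members were not tested. Values of list genes, markers and dimmer probe sets without WT replicate 4 were added after seeing the data.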
